A study of Danio rerio with 16 samples.

Results

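Hepatocytes are kept as hepatocytes by a small set of DNA-binding proteins, and 9 genes for such factors were followed through larval zebrafish livers: the C/EBP genes cebpa, cebpb and cebpd, the nuclear receptor genes hnf4a and nr5a5, the homeobox genes hnf1ba and prox1a, and the forkhead genes foxa2 and foxa3. They were taken by symbol from the deposited gene table, where each stood on 1 of 32058 features, and all 9 passed the filter on low counts that left 17799 genes for testing. The rule used symbols alone, though earlier results of these data were known when the factors were chosen.

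RNA was sequenced from dissected livers in 8 groups of 2 libraries, with the livers of 30 larvae pooled in each library. Wild-type larvae were kept normally to 4 or 5 dpf (days post fertilization), fasted to 6 or 7 dpf, fasted with ethanol to 6 dpf, or fed and taken at 7 dpf. The dose and duration of ethanol are not given in the labels. Where ethanol is not named, fasted means fasted without ethanol. The only other genotype was Tg(fabp10a:GCaMP6s), fasted at 6 dpf, in which the promoter of the liver gene fabp10a drives a fluorescent calcium sensor. A last 7 dpf group of wild-type larvae was titled FedVentral with the treatment Fed, and the labels do not say what ventral refers to. It is called fed ventral here. Libraries held between 18995692 and 28033476 counts. EGFP, counted as a feature of its own, had 136106 and 43968 counts in the GCaMP libraries, 38 in each 6 dpf fasted wild-type library and 0 elsewhere. No label tells if replicate pools were separate clutches, and p-values therefore measure the spread between these libraries alone. With 2 libraries a side no exact permutation test could reach a p of 0.05, so every p given comes from a model across all genes.

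These factors bind enhancers of liver genes together and regulate one another, so that hepatocyte identity rests on a network and not on a single gene. In mammals, C/EBP alpha is known for driving metabolic genes and restraining division, whereas C/EBP beta and delta are known for the acute-phase response and for regeneration. HNF4 alpha, the FOXA proteins and PROX1 are known for building and maintaining the liver lineage.

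Levels are given as CPM, counts relative to the size of the library, scaled for its composition by the TMM method, in replicate order. CPM depends on gene length, so each gene was compared between groups and never with another gene. A gene is said to have risen or fallen where the Benjamini-Hochberg adjusted p of edgeR's quasi-likelihood test was under 0.1 and the change at least 2-fold, the limits in the series design text. Each log2 fold change is given ± its standard error. Libraries of 2 compared groups did not overlap in 41.1% (fed ventral against fed) to 76.8% (7 dpf fasted against 4 dpf) of all genes tested. Lack of overlap was therefore common and is given as a description only. In bulk liver, fewer cells of a type and less RNA per cell cannot be told apart.

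Across the 8 groups the factors differed widely in how much they moved in TMM-scaled CPM. The highest group mean was 16.97 times the lowest for nr5a5, 6.70 times for cebpa, 4.50 times for cebpd and 4.07 times for prox1a. It was 2.77 times for foxa2, 2.46 times for cebpb, 2.05 times for hnf1ba, 1.69 times for hnf4a and 1.60 times for foxa3. In 10 comparisons of groups, 19 of 90 tests of a factor passed the limits, and cebpb, hnf4a, hnf1ba and foxa3 passed in none. Changes were common among all 17799 genes too. The fewest that passed were 171, for the GCaMP line, and the most 6953, where 4 dpf and 7 dpf fasted livers were compared. The count of 19 is therefore not read as particular to the factors.

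**Figure D1:**
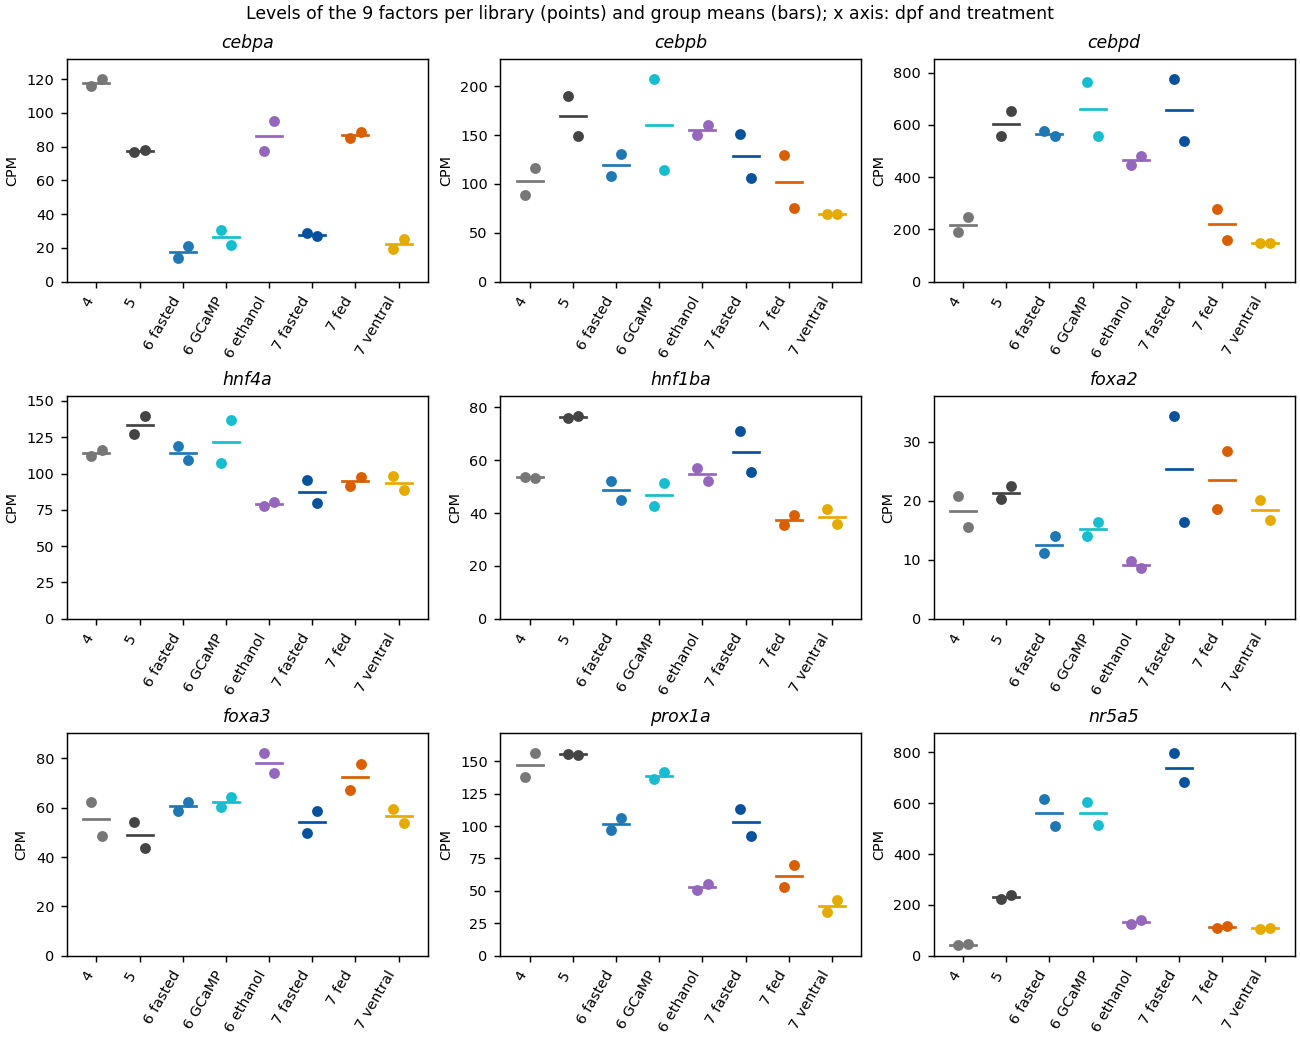
Level in CPM (vertical axes, linear, from 0) of each factor in each library (points) with the group mean (bars), by dpf and treatment. nr5a5 spans 43.6 to 739 CPM in group means, whereas foxa3 spans 48.9 to 78.1 CPM.

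Along the age series, 2 of the 9 rose from 4 to 5 dpf and none fell, beside 7.44% and 7.42% of all genes tested. From 5 dpf to 6 dpf fasted, 1 rose and 1 fell, beside 7.98% and 10.2% of all genes. From 6 to 7 dpf fasted, 1 rose and none fell, beside 2.69% and 4.12%. Between 4 dpf and 7 dpf fasted, where the most genes changed, 2 rose and 1 fell, beside 18.7% and 20.3%. Normal keeping at 4 and 5 dpf gave way to fasting at 6 dpf, so age and fasting cannot be told apart in the last steps of this series.

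Among the treatments, ethanol at 6 dpf fasted came with 1 factor that rose and 1 that fell, beside 11.8% and 11.1% of all genes. Fed against fasted livers at 7 dpf had 1 that rose and 2 that fell, beside 20.7% and 16.8%. Fed ventral against fasted livers had 0 that rose and 3 that fell, beside 20.1% and 16.9%. With 9 genes, 1 factor is already 11.1% of the set, so these counts are not read as particular to the factors. Fed ventral against fed livers had 0 that rose and 1 that fell, beside 0.5% and 0.663% of all genes. Fed livers at 7 dpf against 4 dpf had 1 that rose and 1 that fell, beside 6.72% and 2.89%. GCaMP against wild type at 6 dpf fasted had none in either direction, beside 0.714% and 0.247% of all genes, and none of the 9 reached the adjusted p limit there. The comparisons share libraries with one another, so their values are given side by side.

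Scaling by library size alone shifted these shares for all genes. The median log2 fold change moved to 0.45 for ethanol, -0.34 for 5 against 4 dpf, -0.33 for 7 dpf fasted against 4 dpf, 0.19 for fed against fasted and -0.14 for fed against 4 dpf. With that scaling 4162 genes rose and 1041 fell with ethanol, against 2108 and 1981. The numbers were 597 and 2746, against 1324 and 1321, for 5 against 4 dpf. They were 2287 and 4857, against 3337 and 3616, for 7 dpf fasted against 4 dpf. They were 981 and 772, against 1196 and 515, for fed against 4 dpf, and 69 and 156, against 89 and 118, for fed ventral against fed. No called change of a factor turned its direction under it. Changes of a factor within 2-fold can be close in size to these shifts.

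**Figure D2:**
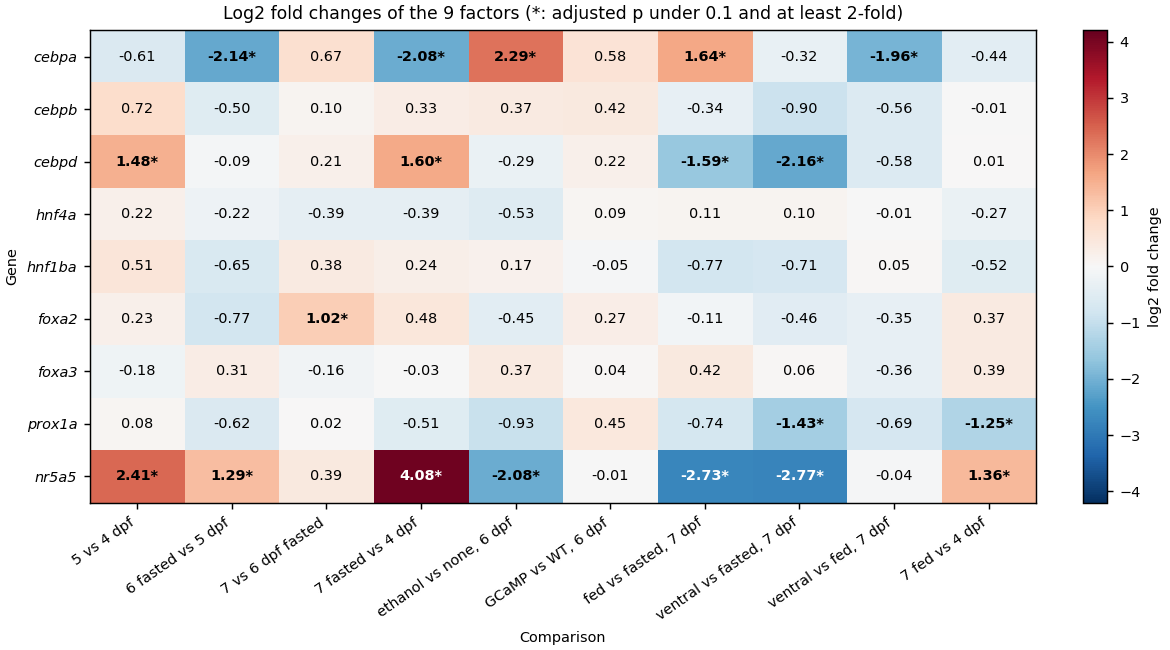
Log2 fold changes of the 9 factors (rows) in the 10 comparisons (columns), with an asterisk where a factor rose or fell. The strongest fields are those of nr5a5, at 4.08 for 7 dpf fasted against 4 dpf and -2.77 for fed ventral against 7 dpf fasted, and the rows of cebpb, hnf4a, hnf1ba and foxa3 carry no asterisk.

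cebpa was high in the youngest livers, low in fasted ones, high again in fed livers and with ethanol, and low in fed ventral livers. It stood at 116 and 119.8 CPM at 4 dpf and at 76.9 and 77.9 CPM at 5 dpf. In 6 dpf fasted livers it stood at 14.2 and 21.0 CPM, and in 7 dpf fasted livers at 28.5 and 27.2 CPM. No wild-type library fasted without ethanol reached the level of any library at 4 or 5 dpf. From 5 dpf to 6 dpf fasted it fell 4.41-fold, a log2 change of -2.14 ± 0.18 (adjusted p = 1.56e-07). Between 4 dpf and 7 dpf fasted the log2 change was -2.08 ± 0.18 (adjusted p = 3.33e-08). The steps from 4 to 5 dpf (-0.61 ± 0.17, adjusted p = 0.0135) and from 6 to 7 dpf fasted (0.67 ± 0.18, adjusted p = 0.0211) passed the p limit but not the 2-fold limit.

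With ethanol at 6 dpf fasted, cebpa stood at 77.1 and 94.97 CPM, above both fasted wild-type libraries and overlapping those at 5 dpf. It rose 4.90-fold over fasted wild type (log2 change 2.29 ± 0.18, adjusted p = 3.83e-08). In fed livers at 7 dpf it stood at 85.1 and 88.4 CPM, above both fasted libraries of that age. It rose 3.12-fold over fasted livers (log2 change 1.64 ± 0.18, adjusted p = 5.76e-07). Fed livers held less than 4 dpf livers, by -0.44 ± 0.17 on the log2 scale, within 2-fold (adjusted p = 0.0911). GCaMP livers held 30.4 and 21.9 CPM, both above fasted wild type, with an adjusted p of 0.126.

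Fed ventral livers broke with fed livers in cebpa. Their libraries held 19.6 and 25.2 CPM, both below every fed library and both below the fasted libraries of the same age. Against fed livers cebpa fell 3.88-fold (log2 change -1.96 ± 0.18, adjusted p = 3.04e-05), and it was the only one of the 9 factors to pass both limits in that comparison, where 207 of 17799 genes did. Against 7 dpf fasted livers it did not pass, at an adjusted p of 0.156.

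The acute-phase member cebpd followed another course. It stood at 188 and 246 CPM at 4 dpf and at 556 and 654 CPM at 5 dpf, with no overlap, and rose 2.79-fold (log2 change 1.48 ± 0.26, adjusted p = 0.00107). It then stayed between 539 and 775 CPM in the 4 fasted wild-type libraries at 6 and 7 dpf. Between 4 dpf and 7 dpf fasted it rose 3.02-fold (1.60 ± 0.26, adjusted p = 0.000253). Ethanol livers, at 446 and 483 CPM, stood below both fasted wild-type libraries of 6 dpf, at an adjusted p of 0.408. This order depends on the scaling: counts with ethanol were 16194 and 13731 of 28033476 and 22772018 in total. In fasted wild type they were 12516 and 10935 of 24215932 and 20480078. As shares of total counts the ethanol libraries stood above both fasted ones.

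Both kinds of fed liver were low in cebpd. Fed livers held 278 and 160.0 CPM and fed ventral livers 147 in each library, all below the fasted livers of the same age. Fed livers fell 3.002-fold from fasted ones (log2 change -1.59 ± 0.26, adjusted p = 0.000272). Fed ventral livers fell 4.47-fold (-2.16 ± 0.26, adjusted p = 2.5e-05). Fed ventral libraries both lay below the fed ones, but the difference did not pass (adjusted p = 0.379).

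cebpb, the third C/EBP member, had replicates that parted widely, and most neighbouring groups overlapped. It ran from 68.9 CPM in a fed ventral library to 207 CPM in a GCaMP library, whose replicate held 114 CPM. Levels at 4 dpf were 88.7 and 117 CPM and at 5 dpf 189.8 and 149 CPM, which did not overlap (adjusted p = 0.140). Of its 7 steps between neighbouring group means, 6 were between groups whose libraries overlapped. The 2 fed ventral libraries were the lowest of all 16, at -0.90 ± 0.33 on the log2 scale against 7 dpf fasted livers (adjusted p = 0.0460). Without replicate 2 of the fasted group this reached -1.13 and passed both limits.

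Within a library, the balance among the C/EBP genes shifted with the groups. The ratio of cebpd to cebpa counts was 1.63 and 2.05 at 4 dpf, 7.23 and 8.41 at 5 dpf, and 40.5 and 26.7 in 6 dpf fasted livers. It was 27.2 and 19.8 in 7 dpf fasted livers, 5.78 and 5.08 with ethanol, 3.26 and 1.81 in fed livers and 7.47 and 5.85 in fed ventral livers. Every library fasted without ethanol, wild-type or GCaMP, stood above every other library. The ratio of cebpb to cebpa ran from 0.767 at 4 dpf to 7.65 in a 6 dpf fasted library, with 0.849 and 1.52 in fed livers and 3.52 and 2.74 in fed ventral livers. These ratios contain the unknown lengths of both genes, so only their change between libraries can be read.

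**Figure D3:**
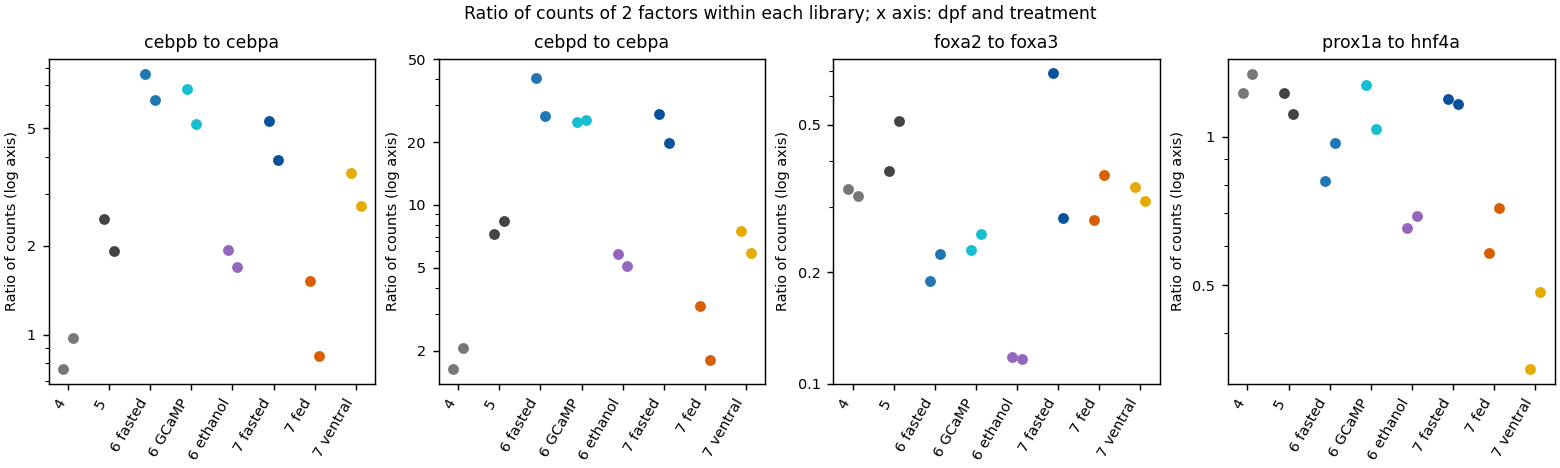
Ratio of the counts of 2 factors in each library (points, log vertical axes) by dpf and treatment. The ratios of cebpb and cebpd to cebpa are lowest at 4 dpf and in fed livers and highest in fasted livers, and that of foxa2 to foxa3 parts the replicates of 7 dpf fasted livers at 0.689 and 0.280.

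nr5a5 had the largest changes of the set. It belongs to the NR5A nuclear receptors, whose member Nr5a2 regulates bile acid genes in mammalian liver. RefSeq lists ff1c as its other name. It stood at 42.7 and 44.5 CPM at 4 dpf, 222 and 240.1 CPM at 5 dpf, 615 and 509.9 CPM in 6 dpf fasted livers and 796 and 682 CPM in 7 dpf fasted livers. Each group lay wholly above the one before. It rose 5.30-fold from 4 to 5 dpf (log2 change 2.41 ± 0.14, adjusted p = 7.92e-10) and 2.44-fold from 5 dpf to 6 dpf fasted (1.29 ± 0.13, adjusted p = 5.17e-07). The last step, 0.39 ± 0.13, was within 2-fold (adjusted p = 0.0476). From 4 dpf to 7 dpf fasted the rise was 16.97-fold (4.08 ± 0.15, adjusted p = 2.39e-13).

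Food and ethanol both came with low nr5a5. Ethanol livers held 125 and 142 CPM, below both fasted wild-type libraries, a 4.22-fold fall (log2 change -2.08 ± 0.13, adjusted p = 1.12e-09). Fed livers held 107 and 116 CPM, a 6.62-fold fall from fasted livers (-2.73 ± 0.14, adjusted p = 8.71e-12). Fed ventral livers held 107 and 110.5 CPM, overlapping the fed ones, and fell 6.80-fold from fasted livers (-2.77 ± 0.14, adjusted p = 6.73e-12). Fed and fed ventral livers thus overlapped in nr5a5 (adjusted p = 0.946) where they were apart in cebpa. All 3 of these groups stayed above both libraries at 4 dpf, and fed livers had risen 2.56-fold over that age (1.36 ± 0.13, adjusted p = 7.39e-07). GCaMP livers, at 606 and 514 CPM, lay within the range of fasted wild type (adjusted p = 0.992).

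hnf4a, the nuclear receptor at the centre of the hepatocyte network, moved little. Group means in TMM-scaled CPM ran from 79.0 CPM with ethanol to 133 CPM at 5 dpf. These extremes depend on the scaling: counts at 4 dpf were 3177 and 3059 of 23462617 and 23329682 in total. At 7 dpf fasted they were 2151 and 1553 of 25366839 and 20679134. As shares of total counts 4 dpf libraries were the highest and 7 dpf fasted ones the lowest. Ethanol libraries held 77.6 and 80.3 CPM against 119 and 109 CPM in fasted wild type, with no overlap. The log2 difference was -0.53 ± 0.13 (adjusted p = 0.00314), within 2-fold. It depends on the scaling: counts with ethanol were 2816 and 2285 of 28033476 and 22772018 in total. In fasted wild type they were 2595 and 2136 of 24215932 and 20480078, close to the same share. Fed libraries, at 91.5 and 97.7 CPM, overlapped the fasted ones at 95.3 and 79.6 CPM (adjusted p = 0.489). Fed ventral libraries, at 98.5 and 88.9 CPM, overlapped both (adjusted p = 0.984 against fed). hnf4a at 7 dpf fasted was lower than at 4 dpf and than at 6 dpf fasted, by -0.39 ± 0.13 on the log2 scale in each, within 2-fold (adjusted p = 0.0176 and 0.0560). The gap from 4 dpf was wider as shares of total counts.

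hnf1ba, a homeobox gene, was highest at 5 dpf and lowest with food in TMM-scaled CPM. It stood at 76.0 and 76.6 CPM at 5 dpf, above both 4 dpf libraries at 53.8 and 53.1 CPM (log2 difference 0.51 ± 0.14, adjusted p = 0.00797). At 6 dpf fasted it was lower than at 5 dpf, at 52.3 and 45.0 CPM (-0.65 ± 0.14, adjusted p = 0.00128). Both differences were within 2-fold and without overlap. The earlier one depends on the scaling: counts at 5 dpf were 1508 and 1573 of 22301983 and 23755352 in total. At 4 dpf they were 1524 and 1396 of 23462617 and 23329682, a close share. Fed libraries held 35.3 and 39.1 CPM and fed ventral libraries 41.4 and 35.9 CPM, below 71.0 and 55.6 CPM in fasted livers of the same age. The log2 differences from fasted were -0.77 ± 0.14 (adjusted p = 0.000123) and -0.71 ± 0.14 (adjusted p = 0.000257), again within 2-fold. Ethanol livers, at 57.1 and 52.1 CPM, overlapped fasted wild type (adjusted p = 0.361). This too depends on the scaling: their counts were 2074 and 1483 of 28033476 and 22772018 in total. Fasted wild type had 1138 and 880 of 24215932 and 20480078. As shares of total counts these did not overlap, and ethanol livers overlapped those at 5 dpf.

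The forkhead genes foxa2 and foxa3, whose proteins open chromatin at liver enhancers, differed in course. foxa2 stood at 9.70 and 8.65 CPM with ethanol, the 2 lowest libraries of all 16 in TMM-scaled CPM. It stood at 11.1 and 14.0 CPM in 6 dpf fasted wild type, and the difference did not pass (adjusted p = 0.287). That rank depends on the scaling: counts with ethanol were 352 and 246 of 28033476 and 22772018 in total. In fasted wild type they were 242 and 274 of 24215932 and 20480078, and as shares the groups overlapped. foxa2 was called only from 6 to 7 dpf fasted, where it rose 2.03-fold (1.02 ± 0.31, adjusted p = 0.0476). The 7 dpf fasted libraries held 34.3 and 16.5 CPM and so parted widely, though both lay above the 6 dpf ones. Without the higher of them the log2 difference was 0.39 (adjusted p = 0.395), and without the lower it was 1.45. The call was lost in 5 of 11 alternatives.

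foxa3 kept within 1.60 times between its highest and lowest group means in TMM-scaled CPM. This span depends on the scaling: counts with ethanol were 2977 and 2108 of 28033476 and 22772018 in total. At 5 dpf, the lowest group, they were 1073 and 898 of 22301983 and 23755352, a wider gap as shares. foxa3 was highest with ethanol, at 82.0 and 74.1 CPM against 58.6 and 62.5 CPM in fasted wild type (log2 difference 0.37 ± 0.14, adjusted p = 0.0488). As shares of total counts these 2 groups also lay further apart. Fed livers, at 67.2 and 77.6 CPM, lay above fasted ones at 49.8 and 58.8 CPM (0.42 ± 0.14, adjusted p = 0.0196). Both differences were within 2-fold and without overlap. Fed ventral livers, at 59.4 and 53.9 CPM, lay below the fed ones (adjusted p = 0.281).

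prox1a, a homeobox gene known from mouse for letting hepatoblasts migrate and from lymphatic vessels, was highest in the youngest livers. It stood at 138 and 156 CPM at 4 dpf and 156 and 155 CPM at 5 dpf, which overlapped. This overlap depends on the scaling: counts at 4 dpf were 3896 and 4099 of 23462617 and 23329682 in total. At 5 dpf they were 3093 and 3179 of 22301983 and 23755352, lower shares without overlap. At 6 dpf fasted it was lower, at 96.7 and 106 CPM (log2 difference from 5 dpf -0.62 ± 0.15, adjusted p = 0.00320), and at 7 dpf fasted it stood at 113 and 92.6 CPM. Ethanol livers held 50.6 and 55.5 CPM, 1.91-fold below fasted wild type and just within 2-fold (-0.93 ± 0.15, adjusted p = 5.86e-05). The size of this gap depends on the scaling: counts with ethanol were 1837 and 1577 of 28033476 and 22772018 in total. In fasted wild type they were 2106 and 2070 of 24215932 and 20480078, a narrower gap as shares. GCaMP livers held 136 and 141 CPM, above both fasted wild-type libraries (adjusted p = 0.130).

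With food prox1a was also low. Fed livers held 53.3 and 70.0 CPM, below both fasted libraries (log2 difference -0.74 ± 0.15, adjusted p = 0.000335), within 2-fold. Fed ventral livers held 33.4 and 43.1 CPM, the 2 lowest of all 16 libraries. They fell 2.70-fold from fasted livers (-1.43 ± 0.15, adjusted p = 1.92e-07) and were 1.61-fold below fed livers (-0.69 ± 0.15, adjusted p = 0.0230). From 4 dpf to fed livers at 7 dpf prox1a fell 2.38-fold (-1.25 ± 0.15, adjusted p = 8.42e-06). Within a library, the ratio of prox1a to hnf4a counts was 1.23 and 1.34 at 4 dpf, 0.652 and 0.690 with ethanol, 0.583 and 0.716 in fed livers and 0.339 and 0.484 in fed ventral livers.

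**Figure D4:**
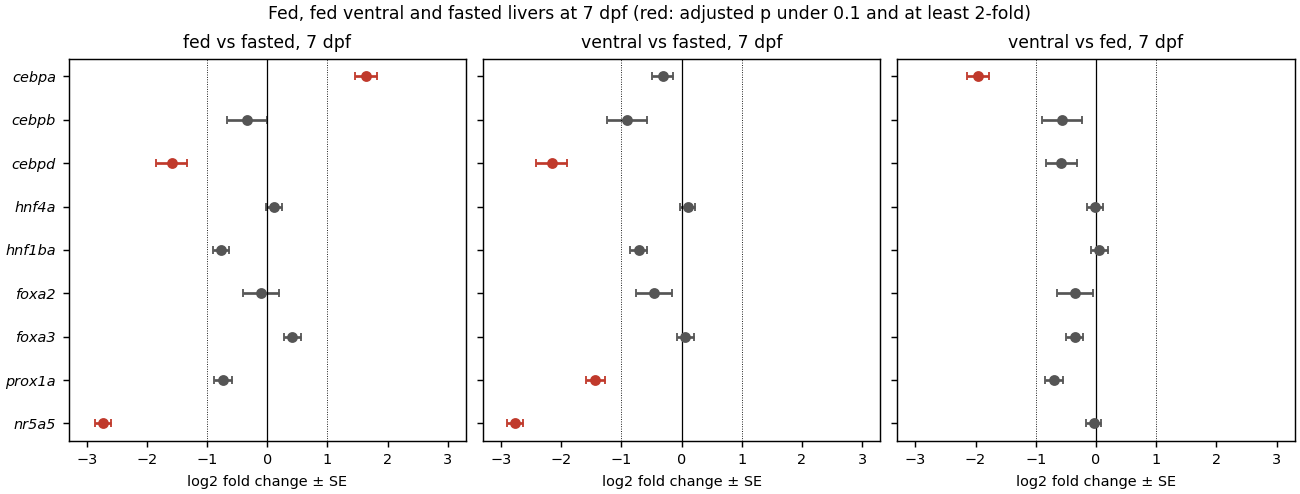
Log2 fold changes with standard errors (horizontal axes) of the 9 factors at 7 dpf, for fed against fasted, fed ventral against fasted and fed ventral against fed livers, in red where a factor rose or fell. cebpa is the only red point of the last comparison, at -1.96, whereas nr5a5 is at -2.73 and -2.77 in the first and second.

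Markers of other cells differed between the same libraries, and their part in the changes of the factors was not tested. All 15 markers of cell division rose in fed against fasted livers at 7 dpf. They took 0.0754% and 0.0803% of counts in fed libraries, 0.0831% and 0.0787% in fed ventral ones and 0.00434% and 0.00578% in fasted ones, with none at 0 in both libraries of these groups. At 4 dpf, where cebpa was highest, they took 0.0732% and 0.0611%, and at 5 dpf 0.0103% and 0.0100%, with all 15 falling between these ages. Fed and fed ventral livers lay close in division markers, whereas cebpa differed 3.88-fold between them. A link between these markers and cebpa was not tested. With ethanol, 3 of the 15 rose and 1 fell, and the list took 0.0106% and 0.00940% of counts against 0.00396% and 0.00382% in fasted wild type, where ccnb1 and birc5a were at 0. Scaled by library size alone, 6 rose and 1 fell.

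Endothelial cells and bile ducts express some of the same factors. Of 19 endothelial markers, 16 fell in fed against fasted livers at 7 dpf and none was at 0. They took 0.0304% and 0.0307% of counts in fed libraries, 0.0338% and 0.0353% in fed ventral ones and 0.0895% and 0.117% in fasted ones. Both they and prox1a were low in fed and fed ventral livers. In CPM the list summed to 575 and 608 with ethanol, where prox1a was low, against 563 and 621 in fasted wild type. This likeness depends on the scaling. As a percent of counts the list took 0.0744% and 0.0760% with ethanol against 0.0507% and 0.0593%, without overlap. At 4 dpf, where prox1a was high, it summed to 394 and 396 CPM. The part of these markers in the changes of prox1a was not tested. Of 12 biliary markers, 2 fell and none was at 0 in both libraries of a group. They took 0.180% and 0.167% in fed libraries, 0.134% and 0.136% in fed ventral ones and 0.323% and 0.321% in fasted ones. In fed and fed ventral livers they and hnf1ba were both low. Summed CPM of the biliary list was 1029 and 1056 at 4 dpf and 1849 and 2112 at 5 dpf, where hnf1ba was highest in CPM. With ethanol it was 3217 and 3289, against 2962 and 2895 in 6 dpf fasted wild type. It was highest in 7 dpf fasted livers, at 3633 and 3405. As a percent of counts the list took 0.417% and 0.411% with ethanol against 0.266% and 0.276% in 6 dpf fasted wild type. With ethanol 0 of the 12 rose, but 6 did when scaled by library size alone. The part of these markers in the changes of hnf1ba was not tested.

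Blood cells of the myeloid line express C/EBP genes too. Of 15 leukocyte markers tested, 9 rose in fed against fasted livers at 7 dpf, and the list of 17 took 0.00643% and 0.00701% of counts in fed libraries, 0.00348% and 0.00475% in fed ventral ones and 0.00244% and 0.000730% in fasted ones. The neutrophil marker lyz was at 0 in all 3 of these groups. All 11 red blood cell markers tested also rose in fed against fasted livers, with a median log2 fold change of 5.42. Their list took 0.0514% and 0.0651% of counts in fed libraries, 0.0875% and 0.0570% in fed ventral ones and 0.00173% and 0.000701% in fasted ones, with hbaa1 at 0 in each group.

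Markers of pancreas, skin and intestine were also counted in the dissected livers. Of 17 exocrine pancreas markers tested, all fell with ethanol, and the full list of 18 went from 0.440% and 0.345% of counts in fasted wild type to 0.0133% and 0.141%, with ptf1a at 0 in both groups. Scaled by library size alone, 10 of the 17 fell. In 7 dpf fasted livers the list took 0.659% in the library with 34.3 CPM of foxa2 and 1.35% in the library with 16.5 CPM. A link between these markers and foxa2 was not tested. The exocrine list took 0.308% and 0.272% in fed libraries and 0.0202% and 0.0679% in fed ventral ones. Of 18 skin markers, 16 fell with ethanol, from 0.401% and 0.524% to 0.0813% and 0.0638%, with krt1-19d at 0 in ethanol libraries. In fed against fasted livers 2 skin markers rose and 9 fell, from 0.131% and 0.134% to 0.0269% and 0.0376%, with krt1-19d at 0 in fed libraries. Fed ventral replicates parted in skin markers, at 0.0193% and 0.107%, and in 12 stellate and fibroblast markers, at 0.00939% and 0.0780%. Of 11 intestine markers tested, 4 rose and 1 fell with food. Their list of 13 went from 0.0596% and 0.0690% to 0.224% and 0.282%, with fabp6 at 0 in fed libraries. Endocrine pancreas markers took at most 0.00557% in any library. Hepatocyte products were abundant in every library, with 10.7% to 22.7% of counts in 35 genes for secreted plasma proteins.

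Other genes of the same families were followed as a list of 15, of which 10 were tested. Of all genes tested, 20.7% rose and 16.8% fell in fed against fasted livers, and 11.8% and 11.1% with ethanol. Counts in this and the following lists are to be set beside these shares. With ethanol none of the 10 changed. In fed against fasted livers 1 rose and 5 fell, with a median log2 fold change of -0.92 beside 0.00 over all genes, and 2 rose and 4 fell when scaled by library size alone. hnf4b, a second HNF4 gene, rose 6.13-fold from 6.25 ± 1.001 to 38.4 ± 0.960 CPM (SD, n = 2). In the same livers hnf4a did not pass either limit. foxa1 fell 2.08-fold, from 32.0 ± 2.90 to 15.4 ± 1.96 CPM (SD, n = 2), and fell again between fed and fed ventral livers, at -1.09 ± 0.17 on the log2 scale. cebpg fell 2.97-fold with food, from 48.6 ± 7.24 to 16.4 ± 0.103 CPM (SD, n = 2). nr5a2, the nearest relative of nr5a5 in the list, passed the 2-fold limit in no comparison. It was 1.55-fold lower in fed than in fasted livers (adjusted p = 0.000168), where nr5a5 was 6.62-fold lower.

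Other transcription factors of liver were listed as 29 genes, of which 24 were tested. In fed against fasted livers 3 rose and 7 fell, with a median log2 fold change of -0.38, and 3 rose and 5 fell when scaled by library size alone. creb3l3a, whose mammalian counterpart regulates lipid and acute-phase genes, rose 27.7-fold from 2.44 ± 0.0496 to 68.0 ± 8.98 CPM (SD, n = 2), in the same livers in which cebpa rose. klf6a fell 3.83-fold and gata4, which acts in early liver development, fell 3.6-fold. With ethanol 1 rose and 4 fell, although 3 rose and 3 fell when scaled by library size alone. klf15, a factor of fasting metabolism in mouse, fell 3.74-fold with ethanol, and the nuclear receptor gene rxraa fell 3.57-fold. onecut1 rose 2.79-fold. In 5 against 4 dpf 3 rose and none fell, but none did when scaled by library size alone.

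Genes for partners of the factors and for signals that act on them made a list of 20, all tested. From 4 to 5 dpf, 4 rose and none fell, although 2 rose and 2 fell when scaled by library size alone. In fed against fasted livers 1 rose and 8 fell, with a median log2 fold change of -0.65, and 1 rose and 5 fell when scaled by library size alone. trib3 and trib1, both genes for pseudokinases, fell 10.6-fold and 4.31-fold. Of these 2, it is the trib1 product that is known in mammals to bring C/EBP alpha to degradation. ddit3, which encodes the C/EBP homologue CHOP, fell 3.48-fold with food and 3.19-fold with ethanol. With ethanol 1 rose and 4 fell, but 5 rose and 1 fell when scaled by library size alone. socs3a, an inhibitor of cytokine signalling, rose 4.40-fold, and ppargc1b, a coactivator of nuclear receptors, fell 2.48-fold.

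Genes that such factors are known to drive were counted in 2 lists. Of 35 genes for secreted proteins, 3 rose and 17 fell with ethanol (median log2 fold change -1.01), and 10 rose and 2 fell in fed against fasted livers (median 0.27). rbp4, the retinol carrier of plasma, fell 7.70-fold with ethanol and apoba, an apolipoprotein B gene, fell 5.65-fold. Transferrin tfa rose 5.45-fold with food. Of 31 genes for liver enzymes and carriers, 0 rose and 19 fell with ethanol (median -1.18), and 4 rose and 11 fell with food (median -0.84). tat, for tyrosine breakdown, fell 5.61-fold with ethanol and 12.4-fold with food, and cyp7a1, the rate-limiting enzyme of bile acid synthesis, fell 52.1-fold with food. cebpa had risen in both of these comparisons and nr5a5 had fallen in both. A link between the factors and the genes of these 2 lists was not tested. Between fed and fed ventral livers none of the 35 and none of the 31 changed, beside 0.5% and 0.663% of all genes that rose and fell. In lists of this size none is near that share. Scaling by library size alone left 8 of the 35 and 12 of the 31 falling with ethanol. With food it gave 13 of the 35 that rose and 1 that fell, and 4 of the 31 that rose and 8 that fell.

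Of a list of 15 acute-phase genes, beside which cebpb and cebpd are of interest, 10 were tested. In fed against fasted livers, where cebpd fell, 2 of the 10 rose and 2 fell, beside 20.7% and 16.8% of all genes. From 4 to 5 dpf, where cebpd rose, none of the 10 changed, beside 7.44% and 7.42% of all genes that rose and fell. In a list of this size both results are near the shares of all genes, and a link with cebpd was not tested.

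**Figure D5:**
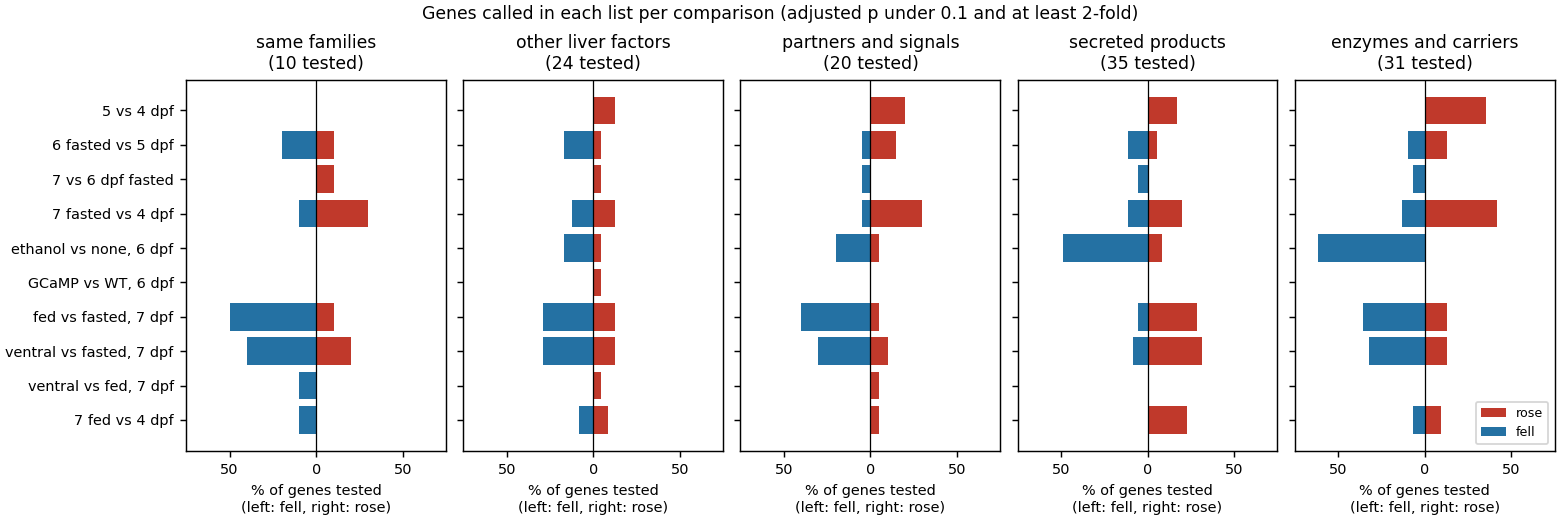
Percent of genes tested in each of 5 lists, the cell type markers left out, that rose (right, red) or fell (left, blue) in the 10 comparisons. Among these 5 lists the longest bar is that of enzymes and carriers with ethanol, where 19 of 31 fell. Fed ventral against fed livers, where only 207 of 17799 genes changed, has no bar for secreted products or enzymes.

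The genes most like each factor were sought among 9001 others with a mean of at least 5 CPM, by Pearson r of log2 CPM over the 16 libraries. These libraries share groups and scaling, so r is a description. nr5a5 had the closest followers, castor2 (r = 0.986) and rnf185 (0.973). cebpd came next with trpm7 (0.962) and irf2bp2b (0.959), and prox1a with arhgef1b (0.949) and pls3 (0.938). cebpa was followed by gucd1 (0.931) and ccnd2a (0.905), cebpb by dusp7 (0.929) and plxnd1 (0.856), and hnf4a by pdcd4a (0.922) and gcdhb (0.921). hnf1ba had stard13b (0.886) and mtmr10 (0.885), foxa2 had rereb (0.845) and mafba (0.833), and foxa3 had abca1b (0.816) and kcmf1 (0.795). Among the factors themselves the highest r was between cebpb and cebpd (0.831) and the lowest between cebpa and nr5a5 (-0.703).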

How the data were processed

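Raw counts per gene were deposited for 16 libraries, with EGFP as an extra feature. HISAT2, featureCounts and the GRCz11 genome are named for the authors' alignment and counting, per the submitters' processing notes. Not given in the sources used here were their versions, the annotation release and the strand setting. Without a known strand setting, reads of overlapping antisense genes cannot be told apart, and near-identical copies may share counts. Even numbers made up 70.3% to 77.8% of values from 1 to 50, which 1 count for each mate of a pair could give. Tests were repeated with counts halved.

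The test was that of edgeR 4.0.16 under R 4.3.3 (quasi-likelihood F test, robust, TMM, default filter by group), in 1 model of all 16 libraries with 8 residual degrees of freedom. P-values were adjusted over all 17799 genes tested. Standard errors were obtained by dividing each log2 fold change by the root of its F value and so restate the test. Libraries held 18995692 to 28033476 counts, and 3 counts equal 0.0826 to 0.165 CPM, which covers counting error only. The test was tried on simulated counts before use. DESeq2 1.42.0 and other scalings, filters and left-out libraries were alternatives. Replicate numbers were not used to pair the libraries in the main model.

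All 9 factors are named in the text, with up to 4 called genes per list by size of change. The factors and lists were chosen with earlier results of these data known. No gene lengths or sequences of the build used were at hand, so none are given.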

Additional observations from a re-analysis of the deposited data

How the results depend on the processing

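Of the 19 changes of a factor that passed both limits, 18 kept direction and call under all 11 alternatives run for each: RLE scaling, library size alone, no filter, DESeq2, a replicate block, only the 4 libraries compared, halved counts and each of 4 libraries left out. The exception was foxa2 from 6 to 7 dpf fasted, so the number of factors changed there was 0 with library size alone and 0 with only the 4 libraries compared, and 0 to 1 with a library left out. The cause was not tested. Of 71 that did not pass, 2 came to pass: cebpa for 5 against 4 dpf with library size alone (-1.02) and cebpb for fed ventral against fasted livers without replicate 2 of the fasted group (-1.13). Signs changed in at least 1 alternative for 30 of the 71, and log2 fold changes of such factors are given in the text only where the unadjusted p was under 0.05. Over all genes, 171 changed between GCaMP and wild type, but 461 without the filter, 91 at adjusted p under 0.05 and 55 to 237 with a library left out (55 without GCaMP replicate 1, 59 without fasted replicate 2). Between fed ventral and fed livers 207 changed, but 733 without the filter, 380 in DESeq2, 124 at adjusted p under 0.05 and 85 to 224 with a library left out (85 without fed replicate 2). With the replicate number as a block the number of factors changed stayed the same in all 10 comparisons, and 4007 genes changed with ethanol against 4089. Same-numbered libraries had correlated deviations over 0.1 in only 2 of 28 pairs of groups (-0.24 to 0.18). This cannot tell if same-numbered pools shared a clutch or handling. Of the 9 factors foxa2 had the fewest counts.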

Other observations

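The genes next to each factor were looked up after the values were seen, by order of protein-coding genes in RefSeq assembly GRCz12tu, which is not the build of the counts. Of 18 neighbours, 13 were tested. Beside nr5a5 stand camsap3, which passed both limits in no comparison, and soul5. soul5 rose with nr5a5 from 4 to 5 dpf (log2 change 3.97 ± 0.29) and fell with it under ethanol (-3.47 ± 0.28), but did not pass in fed against fasted livers, where nr5a5 fell. Beside cebpd stands mcm4, a gene of the replication helicase. mcm4 rose in fed against fasted livers (2.65 ± 0.12) and fell from 4 to 5 dpf (-1.29 ± 0.12), the reverse of cebpd in both. Beside cebpa stands cebpg, of the same family, which fell in fed against fasted livers (-1.57 ± 0.16) where cebpa rose.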
